A study of Mus musculus with 12 samples.

Results

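Sialyltransferases are the enzymes that place sialic acid at the ends of sugar chains, and 10 mouse genes of this kind, St3gal1 to St3gal6, St6gal1, St6galnac2, St6galnac4 and St6galnac6, were followed through enteroids lacking Hdac1 or Hdac2. They were picked by gene symbol out of the 18929 genes listed in the count tables. The set was drawn up around St3gal4, whose RNA moved in opposite directions in the mutants, so the values of St3gal4 are given below as a description with no test. The tests concern the other 9 genes.

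The data were RNA-Seq read counts from 12 libraries of jejunal enteroids, which are small epithelial organoids grown from intestinal crypts, kept for 5 days in ENR medium (EGF, Noggin and R-spondin). There were 4 libraries each from control, Hdac1-deficient and Hdac2-deficient cultures. The mutant mice carried floxed Hdac1 or Hdac2 alleles and the villin-Cre transgene, which is active in the intestinal epithelium, on a mixed C57BL/6J, 129SV and CD1 background, and the controls are described both as villin-Cre and as wild-type. The age of the mice is not given. The methods name a single mouse of each genotype as the origin of the crypts, and nothing says that libraries within a group stem from separate animals. The p-values measure the spread between these libraries, which may be technical, and genotype cannot be told apart from mouse or culture line.

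Each library held between 20693200 and 30658628 counted reads, so that 3 reads corresponded to 0.0979 to 0.145 CPM. CPM are counts per 1000000 reads, scaled with TMM factors. Hdac1 RNA averaged 90.6 ± 2.87 CPM in controls (SD, n = 4) and 4.23 ± 0.842 in Hdac1-deficient enteroids. Hdac2 RNA averaged 137 ± 4.39 CPM in controls and 75.9 ± 2.84 in Hdac2-deficient enteroids, so much Hdac2 RNA was still counted. These counts cover the whole gene and do not show which exons the reads came from. The paper reports that RT-PCR, Western blot and immunofluorescence showed the deletion of either gene in RNA and protein. Epithelial markers were abundant, whereas the summed markers of fibroblasts stayed at or below 0.356 CPM in every library, and Col1a2, Col3a1, Cd3e, Cdh5 and Kdr were not among the listed genes.

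Sialic acid is transferred in the Golgi from its activated nucleotide form, and the gene names tell where it lands. St3gal enzymes join it to the third carbon of galactose, St6gal1 to the sixth carbon of galactose on N-glycans, and St6galnac enzymes to the sixth carbon of N-acetylgalactosamine in O-glycans or glycolipids. In the gut such caps decorate mucins and the enterocyte glycocalyx, where they serve as receptors for lectins and microbes and compete with other terminal sugars such as fucose.

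Start-site sequences were available for 7 of the 10 genes in 10 windows, taken from RefSeq on GRCm38.p6, each covering the 250 bases before a start. Those of St3gal4 and St6gal1, the members with the highest fold changes, and of St3gal3, lower in both mutants, are shown 5′ to 3′ on the gene's strand. Capitals mark GGGCGG or its reverse complement, the core letters of the GC box.
St3gal4, minus strand, chr9:35116865-35117114: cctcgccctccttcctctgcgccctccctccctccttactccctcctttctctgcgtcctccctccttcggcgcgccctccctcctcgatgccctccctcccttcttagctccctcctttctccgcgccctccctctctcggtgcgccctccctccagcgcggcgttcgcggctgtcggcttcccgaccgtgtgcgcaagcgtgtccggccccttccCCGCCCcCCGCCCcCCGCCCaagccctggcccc
St6gal1, plus strand, chr16:23224490-23224739: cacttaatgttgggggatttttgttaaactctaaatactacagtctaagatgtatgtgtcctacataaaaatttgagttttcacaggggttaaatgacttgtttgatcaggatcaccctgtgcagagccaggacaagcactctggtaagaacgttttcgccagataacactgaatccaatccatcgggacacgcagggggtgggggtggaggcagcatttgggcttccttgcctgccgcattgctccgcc
St3gal3, minus strand, chr4:118134947-118135196: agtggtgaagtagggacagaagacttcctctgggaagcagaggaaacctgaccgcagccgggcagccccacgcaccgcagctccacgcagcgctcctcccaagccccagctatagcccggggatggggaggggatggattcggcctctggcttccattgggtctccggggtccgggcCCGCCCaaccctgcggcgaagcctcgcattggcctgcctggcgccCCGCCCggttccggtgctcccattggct

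The St3gal4 window had a GC content of 72.8%, beside a median of 52.4% over 32851 RefSeq windows of the same length. Searched on both strands with overlapping hits allowed, it held GGGCGG 3 times. That motif was present in 32.7% of all windows and occurred at least 3 times in 8.47%. The upstream stretch was also filled with CCCTCC, 14 times, a motif chosen after reading this sequence. CCCTCC was found in 35.2% of windows, and 14 or more times in 0.00609%. The St6gal1 window shown had a GC content of 47.2% and no GGGCGG, as did its other start-site windows at 52.8% and 49.6%. St3gal3 had 2 GGGCGG matches and a GC content of 68.4%. Of the 10 member windows, 5 held GGGCGG. These are letter matches only. The St3gal4 window lies inside the annotated span of the gene, which reaches chr9:35119268, so a start farther upstream was not covered. Which start is used in these enteroids cannot be read from whole-gene counts.

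St3gal4 adds sialic acid to galactose in the chains of N-glycans and O-glycans and takes part in making selectin ligands. The gene (ENSMUSG00000032038) occupies chr9:35046576-35119268 on the minus strand of GRCm38. Control libraries held 7.07, 8.27, 8.46 and 8.24 CPM. Hdac1-deficient libraries held 284, 296, 299.9 and 326 CPM. Hdac2-deficient libraries held 5.27, 5.51, 6.64 and 3.51 CPM. All Hdac1-deficient libraries were thus far above every control, and all Hdac2-deficient libraries were below every control, with no overlap among the 3 groups. The means were 8.01 ± 0.633, 302 ± 17.4 and 5.23 ± 1.29 CPM (SD, n = 4 each), a 37.7-fold higher level without Hdac1 and a 1.53-fold lower level without Hdac2. Relative spread was larger in Hdac2-deficient enteroids, with a coefficient of variation of 24.7%, than in controls at 7.91% or Hdac1-deficient enteroids at 5.77%.

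On the fitted log2 scale, St3gal4 differed from control by 5.25 (SE 0.06) in Hdac1-deficient and by -0.61 (SE 0.13) in Hdac2-deficient enteroids. The direct difference between the mutants was 5.85 (SE 0.09). Ordered by fold change, St3gal4 was the gene at position 46 from the top among 14246 genes in the Hdac1 comparison. In the Hdac2 comparison, it stood at position 1045 from the bottom among 14007. Both comparisons used the same 4 control libraries, of which control replicate 1 was the lowest for this gene. From qPCR, the paper reports St3gal4 as raised specifically in Hdac1-deficient enteroids. Since the RNA came from whole cultures, more cells of a type and more RNA per cell cannot be told apart.

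**Figure D1:**
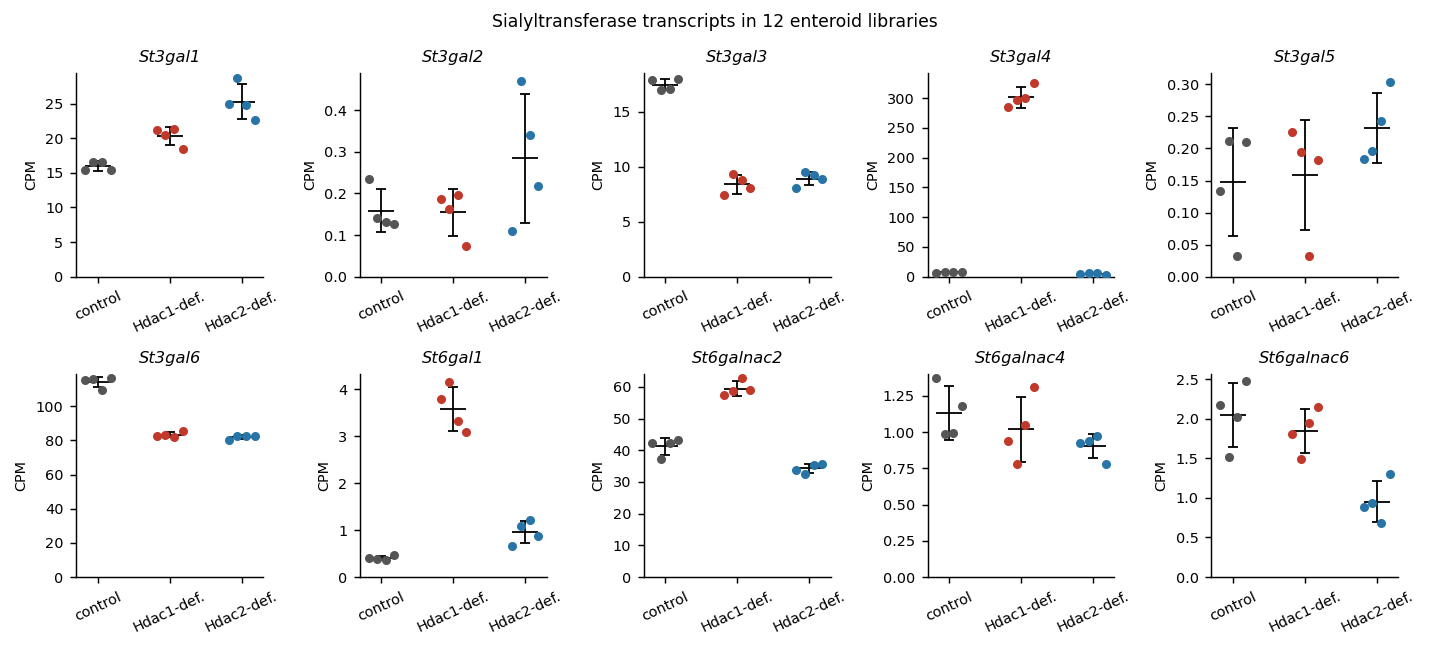
Normalised level (CPM, linear axis from 0, a separate scale in each panel) of the 10 sialyltransferase genes in the 4 control, 4 Hdac1-deficient and 4 Hdac2-deficient libraries, with points for libraries and bars for mean and SD. St3gal4 lies between 284 and 326 CPM in Hdac1-deficient libraries and at or below 8.46 CPM elsewhere, and St6gal1 is ordered control, Hdac2-deficient, Hdac1-deficient without overlap.

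Among the remaining St3gal genes no comparable rise was seen, and the most abundant ones were lower in both mutants. St3gal6 (ENSMUSG00000022747, chr16:58468125-58524243, minus strand), which like St3gal4 caps galactose linked to N-acetylglucosamine, had 115, 116, 109.7 and 116 CPM in controls. It had 82.6, 83.2, 81.8 and 85.5 CPM without Hdac1, and 80.3, 82.7, 82.4 and 82.4 CPM without Hdac2. Both mutant groups lay below all controls and overlapped each other. St3gal6 fell by 0.44 (SE 0.03) on the log2 scale in Hdac1-deficient enteroids, with an edgeR adjusted p of 6.9e-10. It fell by 0.47 (SE 0.03) in Hdac2-deficient enteroids, with an edgeR adjusted p of 5.5e-11. The direct difference between the mutants was 0.02 (SE 0.03), edgeR adjusted p 0.60. The end of St3gal6 overlaps Dcbld2 on the opposite strand.

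St3gal3 (ENSMUSG00000028538, chr4:117932154-118134914, minus strand), another enzyme of N-glycan chains, dropped to about the same low level in either mutant. Its controls held 17.9, 17.0, 17.1 and 17.9 CPM. The Hdac1-deficient libraries had 7.39, 9.30, 8.81 and 8.07 CPM, and the Hdac2-deficient ones 8.11, 9.53, 9.21 and 8.85. Again the mutants were separate from controls and overlapped each other. In the edgeR fits St3gal3 fell by 1.04 (SE 0.07, adjusted p 9.9e-11) without Hdac1 and by 0.96 (SE 0.07, adjusted p 4.8e-11) without Hdac2. The mutants differed by -0.08 (SE 0.08, edgeR adjusted p 0.43). St3gal3 lies on the chromosome of Hdac1, 11.4 megabases away, and it overlaps the antisense gene 9530034E10Rik.

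St3gal1 (ENSMUSG00000013846, chr15:67102875-67176830, minus strand), which caps the simple galactose-containing core of O-glycans, went up in both mutants. Levels ran from 15.4 to 16.6 CPM in controls, from 18.4 to 21.3 without Hdac1, and from 22.7 to 28.7 without Hdac2. The 3 ranges did not overlap, and the Hdac2-deficient one was highest. The log2 rise was 0.36 (SE 0.06, edgeR adjusted p 3.2e-05) in Hdac1-deficient and 0.67 (SE 0.07, adjusted p 1.5e-08) in Hdac2-deficient enteroids. The direct difference was -0.32 (SE 0.06, edgeR adjusted p 2.0e-04), so the level without Hdac2 exceeded that without Hdac1.

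St3gal2, an enzyme of O-glycans and gangliosides, and St3gal5, which makes the first ganglioside from lactosylceramide, were barely counted. St3gal2 had 2 to 12 reads per library, or 0.0728 to 0.469 CPM, and St3gal5 had 1 to 7 reads, or 0.0329 to 0.304 CPM. Neither passed the filter on low counts, so differences in them were not detectable at this depth. St3gal2 also overlaps the antisense gene Gm26816.

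St6gal1 (ENSMUSG00000022885, chr16:23224740-23360350, plus strand), the only member acting on the sixth carbon of galactose, was scarce in controls and rose in both mutants. Control libraries had 0.402, 0.387, 0.363 and 0.462 CPM, from 11 or 12 reads each. Hdac1-deficient libraries reached 3.79, 4.15, 3.32 and 3.09 CPM, from 85 to 128 reads. Hdac2-deficient libraries had 0.663, 1.09, 1.21 and 0.868 CPM, from 18 to 28 reads. The 3 groups did not overlap. The means of 0.404 ± 0.0421, 3.59 ± 0.473 and 0.959 ± 0.244 CPM (SD, n = 4 each) corresponded to 8.88-fold and 2.38-fold rises. The log2 changes were 3.16 (SE 0.19, edgeR adjusted p 1.1e-11) without Hdac1 and 1.24 (SE 0.27, adjusted p 4.2e-04) without Hdac2. The mutants differed directly by 1.92 (SE 0.17, edgeR adjusted p 8.5e-10).

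St6galnac2 (ENSMUSG00000057286, chr11:116675303-116694868, minus strand), an O-glycan enzyme, was the other member whose RNA moved in opposite directions. It stood at 42.2, 37.1, 42.4 and 43.2 CPM in controls. Without Hdac1 it stood at 57.4, 58.6, 62.7 and 59.0 CPM, and without Hdac2 at 33.9, 32.6, 35.4 and 35.6. Each Hdac1-deficient library was above, and each Hdac2-deficient library below, all controls. St6galnac2 rose by 0.54 (SE 0.05, edgeR adjusted p 4.9e-09) in Hdac1-deficient enteroids and fell by 0.25 (SE 0.05, adjusted p 1.5e-04) in Hdac2-deficient enteroids. The direct difference was 0.79 (SE 0.05, edgeR adjusted p 2.1e-13), much smaller than that of St3gal4. One end of the gene overlaps 1810032O08Rik on the opposite strand. Another annotated gene of the same name (ENSMUSG00000110170, chr11:116677483-116681290) lies within it on the same strand and was not listed. How reads from that stretch were counted is not given in the sources used here.

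St6galnac4 and St6galnac6 are tandem genes on the plus strand of chromosome 2, separated by 11 bases. St6galnac6 (ENSMUSG00000026811, chr2:32599709-32620806), which sialylates glycolipids, had 2.18, 1.51, 2.02 and 2.48 CPM in controls, 1.80, 1.49, 1.94 and 2.15 without Hdac1, and 0.884, 0.938, 0.679 and 1.30 without Hdac2. Only the Hdac2-deficient libraries were separate from controls. The change was -1.08 (SE 0.21, edgeR adjusted p 1.3e-04) without Hdac2 and -0.13 (SE 0.17, adjusted p 0.50) without Hdac1. Between the mutants the difference was 0.94 (SE 0.21, edgeR adjusted p 5.2e-04). St6galnac4 (ENSMUSG00000079442, chr2:32587095-32599698), which adds sialic acid to already sialylated O-glycans, ranged from 0.778 to 1.37 CPM over all libraries. It gave -0.14 (SE 0.21, edgeR adjusted p 0.56) without Hdac1 and -0.31 (SE 0.21, adjusted p 0.19) without Hdac2, although its Hdac2-deficient libraries, at no more than 0.970 CPM, were all below the controls.

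Of the 9 genes besides St3gal4, 7 could be tested in each comparison. In Hdac1-deficient enteroids 3 were higher (St3gal1, St6gal1, St6galnac2) and 2 lower (St3gal3, St3gal6) at an adjusted p of at most 0.05, whereas 64.6% of all tested genes passed, 32.7% higher and 31.9% lower. More than 2-fold changes were seen in St6gal1 and St3gal3, where 6.87% of tested genes were that much higher and 3.71% that much lower. In Hdac2-deficient enteroids 2 were higher (St3gal1, St6gal1) and 4 lower (St3gal3, St3gal6, St6galnac2, St6galnac6), against 62.3% of all genes, 31.4% higher and 30.9% lower. There, St6gal1 and St6galnac6 passed 2-fold, as did 5.45% of genes upward and 2.84% downward. Directly between the mutants, 3 were higher without Hdac1 (St6gal1, St6galnac2, St6galnac6) and 1 was lower (St3gal1), where 45.9% of genes passed, 22.3% higher and 23.7% lower. Since most tested genes were called in either mutant, these counts do not set the sialyltransferases apart from other genes.

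The counts past 2-fold rested on values near the limit. Without Hdac1-deficient replicate 1, St3gal3 fell by 0.99 and 1 gene remained past 2-fold. Without Hdac2-deficient replicate 3 or control replicate 4, St6galnac6 fell by 0.97 or 0.99 in the Hdac2 comparison, which likewise left 1. Only St6gal1 passed 2-fold between the mutants, with 2.74% of genes that much higher and 2.89% that much lower. Without Hdac1-deficient replicate 2 or Hdac2-deficient replicate 4, the St6galnac6 difference became 1.04 or 1.12 and the count 2.

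**Figure D2:**
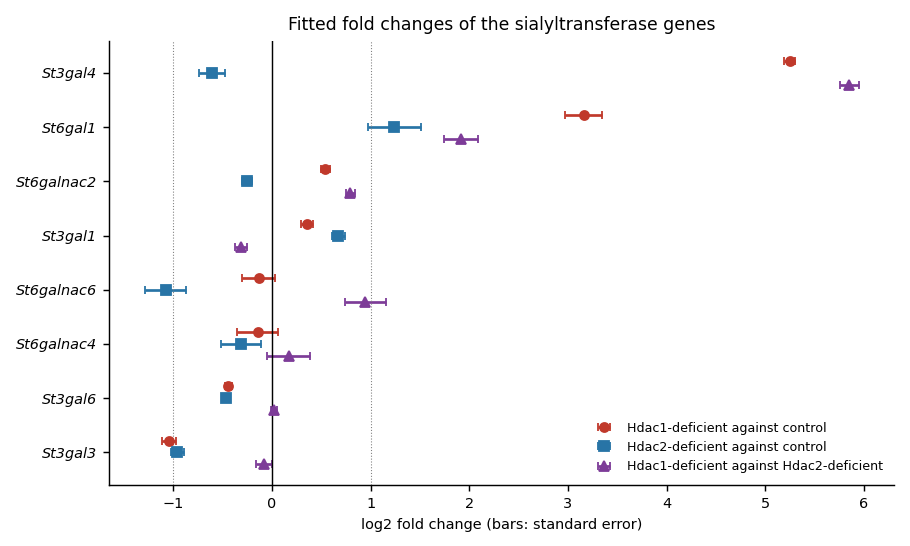
Fitted log2 fold change with its standard error for the 8 sialyltransferase genes that passed the filter, in each mutant against control and between the mutants, with dotted lines at 2-fold. St3gal4 stands at 5.25 and -0.61, St6galnac2 also lies on both sides of 0, and St3gal3 and St3gal6 nearly coincide in the mutants.

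Levels of different genes were compared as CPM per kilobase of exons (RPKM). In controls St3gal6 led with 18.5 ± 0.491 RPKM (SD, n = 4), followed by St6galnac2 at 7.12 ± 0.475, St3gal3 at 6.31 ± 0.182, St3gal4 at 2.74 ± 0.217 and St3gal1 at 2.33 ± 0.101. The remaining members were at or below 0.425 RPKM. Libraries overlapped between the neighbours St6galnac2 and St3gal3, between St3gal4 and St3gal1, and among the lowest genes between St6gal1 and St3gal5 and between St3gal5 and St3gal2. In Hdac1-deficient enteroids St3gal4 came first at 103 ± 5.95 RPKM, ahead of St3gal6 at 13.5 ± 0.259 and St6galnac2 at 10.3 ± 0.398, with no overlap among them. St3gal3 at 3.03 ± 0.303 and St3gal1 at 2.97 ± 0.196 RPKM came next and overlapped, and St6gal1 at 0.730 ± 0.0963 moved ahead of St6galnac6 at 0.383 ± 0.0571. In Hdac2-deficient enteroids the order was St3gal6 at 13.3 ± 0.184, St6galnac2 at 5.94 ± 0.243, St3gal1 at 3.69 ± 0.368, St3gal3 at 3.23 ± 0.222 and St3gal4 at 1.79 ± 0.443 RPKM. There only St3gal1 and St3gal3 overlapped among these neighbours.

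St3gal4 made up 7.26% ± 0.620 of the summed RPKM of the 10 genes in controls (SD, n = 4), 76.8% ± 0.959 without Hdac1 and 6.24% ± 1.42 without Hdac2. The share of St3gal6 went from 49.0% in controls to 10.1% without Hdac1 and was 46.5% without Hdac2. Summed over the 6 St3gal genes, the level was 30.0 ± 0.505, 123 ± 6.01 and 22.1 ± 0.921 RPKM in control, Hdac1-deficient and Hdac2-deficient enteroids. With St3gal4 left out, the sums were 27.2 ± 0.557, 19.6 ± 0.276 and 20.3 ± 0.662 RPKM, so the direction in Hdac1-deficient enteroids turned around. The 4 St6gal and St6galnac genes together had 7.80 ± 0.573, 11.5 ± 0.377 and 6.47 ± 0.254 RPKM, most of it St6galnac2. These sums are descriptions of RNA and say nothing of enzyme activity.

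**Figure D3:**
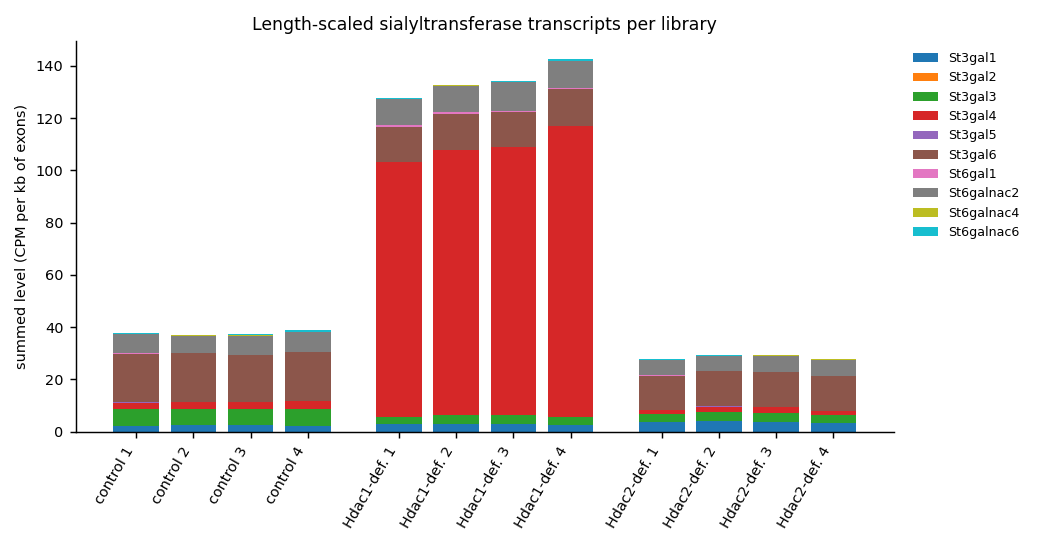
Stacked length-scaled levels (CPM per kb of exons, bars from 0) of the 10 genes in each of the 12 libraries. The segment of St3gal4 takes on average 76.8% of the bar in Hdac1-deficient libraries and 7.26% in controls, while the bars of Hdac2-deficient libraries are lower than those of controls.

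Sums of several cell type markers also differed between the groups. The summed CPM of 10 enterocyte markers ran from 9333 to 9961 in controls, 18388 to 20929 without Hdac1 and 14617 to 16425 without Hdac2. All 10 were higher in each mutant, where 32.7% and 31.4% of all tested genes were higher. The sums for 9 goblet markers were 1908 to 2131, 1996 to 2141 and 3079 to 3311 CPM in the same order. Behind the flat goblet sum without Hdac1, 4 of 9 markers were higher and 2 were lower. Among the higher were Muc2 (log2 change 0.99) and Retnlb (8.55, from a mean of 0.106 CPM in controls). The lower ones were Tff3 (-0.40, edgeR adjusted p 2.2e-07) and Spink4 (-0.38, adjusted p 3.1e-06). Without Hdac2, 8 of 9 were higher by the edgeR test. The 7 listed Paneth markers summed to 2122 to 2483, 3107 to 3370 and 3385 to 3532 CPM. Of the 6 tested, 2 were higher (Lyz1 by 1.26) and 1 was lower (Ang4, which fell by 0.63) without Hdac1, and 5 were higher without Hdac2. For 5 stem cell markers they were 3554 to 3766, 2011 to 2344 and 1683 to 1875 CPM, and all 5 were lower in each mutant, where 31.9% and 30.9% of all tested genes were lower. Enteroendocrine sums ran from 242 to 253, 308 to 350 and 304 to 333 CPM, with 7 and 5 of 9 markers higher and, without Hdac2, 1 lower. The lower one was Chga, which fell by 0.18 (edgeR adjusted p 0.0013) without Hdac2 and rose by 0.14 (adjusted p 0.0053) without Hdac1. The paper reports from qPCR that this marker rose in both mutants. Tuft sums ran from 5.86 to 6.65 CPM in controls, 6.07 to 8.35 without Hdac1 and 3.91 to 4.96 without Hdac2. Without Hdac2, 2 of 4 tested tuft markers were lower, Trpm5 by 0.90 and Pou2f3 by 0.63 on the log2 scale. Dclk1 gave -0.54 (edgeR adjusted p 0.064) and Avil went the other way at 0.33 (adjusted p 0.27). Without Hdac1, 1 of 5 tested tuft markers was higher. The summed leukocyte and endothelial markers did not exceed 3.52 and 0.938 CPM in any library. The part of these markers' cell types in the sialyltransferase results was not tested.

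Genes next to St3gal4 did not share its size of change. The antisense transcript 4930581F22Rik shares 2541 bases with the 5′ end of St3gal4, the start-site window shown above included. It had 23 to 30 reads per control library, 60 to 107 without Hdac1 and 15 to 30 without Hdac2. It rose by 1.59 (SE 0.20, edgeR adjusted p 7.4e-07) without Hdac1 and gave 0.07 (SE 0.25, adjusted p 0.81) without Hdac2. The library kit kept the strand, but whether counting used it is not given in the sources used here, so reads of the overlapping genes cannot be told apart. Dcps, an mRNA decapping enzyme whose gene lies 5.14 kb away, gave 0.03 (SE 0.06, edgeR adjusted p 0.68) without Hdac1 and fell by 0.21 (SE 0.06, adjusted p 0.0035) without Hdac2. Tirap, a Toll-like receptor adaptor 65.3 kb away, rose by 0.28 (SE 0.06, edgeR adjusted p 2.3e-04) and 0.16 (SE 0.07, adjusted p 0.038). On the other side the nearest tested genes lay 1318 kb or farther off, with Gm10698 at -0.09 (edgeR adjusted p 0.64) and 0.29 (adjusted p 0.10). Farther out, Gm27162 (1.64 and 1.72) and the transcription factor gene Ets1 (0.52 and 0.85) were higher in both mutants.

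**Figure D4:**
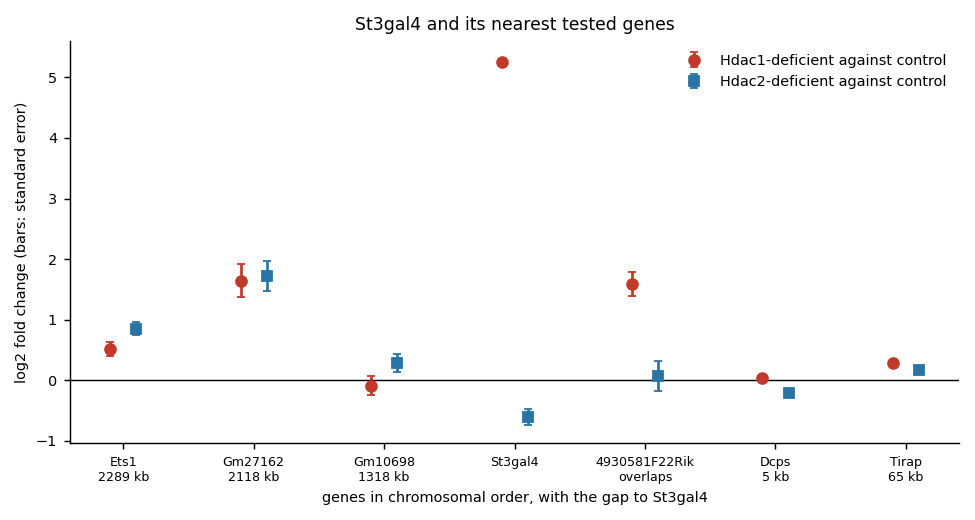
Log2 fold change with its standard error of St3gal4 and the 3 nearest tested genes on each side, in chromosomal order with the gap to St3gal4, for both mutants against control. St3gal4 at 5.25 stands above its neighbours in the Hdac1 comparison, where Gm27162 is at 1.64 and the overlapping antisense gene 4930581F22Rik at 1.59.

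Across the 12 libraries, the genes with a pattern most like St3gal4 were taken by Pearson's r of log2 CPM among 10375 genes. The 12 points form 3 groups, so r mainly reflects the group means. Gm43305 came first with r = 0.996, from 1.43 to 1.78 CPM in controls, 179 to 212 without Hdac1 and 0.700 to 1.26 without Hdac2. It was followed by AI506816 (0.993), the purine nucleoside phosphorylase gene Pnp2 (0.993), the DNA glycosylase gene Tdg (0.993) and Fam20a (0.990). Their fitted log2 changes without Hdac1 were 6.90, 3.52, 4.65, 0.56 and 1.57, so a like pattern went with very unlike sizes. Without Hdac2 they were -0.72, -0.25, -0.03, -0.10 and -0.08. For St6gal1 the closest were Gm31363 (0.987), Gstp2 (0.986) and Naaladl1 (0.980), which in Hdac1-deficient and Hdac2-deficient enteroids were higher by 4.37 and 1.88, 1.73 and 0.70, and 4.91 and 1.96 on the log2 scale. Between members, r was 0.951 for St3gal4 with St6galnac2, 0.878 for St3gal4 with St6gal1 and 0.974 for St3gal3 with St3gal6.

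Genes that supply and remove sialic acid included rises and falls. Of 10 further sialyltransferase genes sought, 2 were listed, and neither passed the filter: St8sia3 had 1 to 15 reads per library and St8sia4 1 to 3. The supply list of 8 tested genes also held the breakdown enzyme Npl and the lysosomal exporter Slc17a5, so its counts do not measure synthesis. In either mutant 4 were higher and 2 lower, where 64.6% and 62.3% of all tested genes were called. Median log2 changes were 0.25 without Hdac1 and 0.06 without Hdac2, beside -0.0040 and -0.0036 over all tested genes. The 2 lower in both mutants, named after their values were seen, were Gne (-0.16 and -0.13) and Slc35a1 (-0.23 and -0.17). Gne starts sialic acid synthesis, and Slc35a1 carries activated sialic acid into the Golgi. In this and the lists below, the other named genes are those with the highest absolute change, unless said to be named after their values were seen. Npl, the lyase that breaks sialic acid down, went from 4.82 to 5.60 CPM in controls to 26.5 to 29.1 without Hdac1 and 11.5 to 13.5 without Hdac2, log2 rises of 2.41 (SE 0.07, edgeR adjusted p 7.3e-17) and 1.25 (SE 0.08, adjusted p 1.8e-11). Nans, the sialic acid synthase, rose by 0.49 and 0.41. Renbp, an N-acetylglucosamine epimerase, rose by 1.61 without Hdac1 (edgeR adjusted p 2.4e-07) and gave 0.03 without Hdac2 (adjusted p 0.91), with a direct difference of 1.57 (SE 0.19, adjusted p 1.0e-07).

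Among 6 sialidase and O-acetylation genes, 3 were higher and 1 lower without Hdac1 (median 0.24), and 4 were higher and 2 lower without Hdac2 (median 0.30), beside 64.6% and 62.3% of all genes called. Casd1, the sialate O-acetyltransferase, rose by 1.44 (SE 0.09, edgeR adjusted p 2.2e-11) and 1.5 (SE 0.09, adjusted p 7.9e-12), and the mutants differed by -0.06 (SE 0.07, adjusted p 0.53). The membrane sialidase gene Neu3 rose by 0.45 and 0.43, and Ctsa, the protective protein of lysosomal sialidase, by 0.44 and 0.43. The lysosomal sialidase gene itself, Neu1, is named after its values were seen. Neu1 fell by 0.23 (edgeR adjusted p 1.5e-04) without Hdac1 and by 0.09 (adjusted p 0.024) without Hdac2.

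Among 13 genes that build the galactose acceptor, 5 were higher and 4 lower without Hdac1 (median 0.11), and 6 were higher and 4 lower without Hdac2 (median 0.09), again beside 64.6% and 62.3% of all genes. B3galt5, which makes the galactose end of type I chains, rose by 0.92 and 1.12. B4galt5, a lactosylceramide synthase, rose by 0.86 and 0.09, and the mutants differed by 0.76 (SE 0.04, edgeR adjusted p 9.5e-16). B4galt6, another such enzyme, is named after its values were seen. It fell by 0.21 (edgeR adjusted p 9.2e-06) and 0.09 (adjusted p 0.016), from 37.7 RPKM in controls, where B4galt5 had 14.4. Gcnt1, a core branching enzyme of O-glycans, rose by 0.86 without Hdac2 and gave 0.29 (edgeR adjusted p 0.19) without Hdac1, with a direct difference of -0.58 (SE 0.16, adjusted p 0.0079).

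Among other enzymes capping galactose, Ggta1 and B4galnt1 moved in opposite directions in the mutants. Of 7 tested, 5 were higher and 1 lower without Hdac1 (median 0.34), and 4 were higher and 3 lower without Hdac2 (median 0.14), beside 64.6% and 62.3% of all genes called. Ggta1, which caps galactose with a further galactose, had 1.64 to 2.11 CPM in controls, 5.96 to 7.24 without Hdac1 and 0.582 to 0.977 without Hdac2. It rose by 1.79 (SE 0.12, edgeR adjusted p 5.8e-11) and fell by 1.26 (SE 0.20, adjusted p 1.3e-05), and the mutants differed by 3.04 (SE 0.15, adjusted p 4.3e-15). B4galnt1, which adds N-acetylgalactosamine to glycolipids and is named after its values were seen, averaged 239.8 ± 3.96 CPM in controls, 299 ± 7.26 without Hdac1 and 224 ± 7.89 without Hdac2 (SD, n = 4 each). Its log2 changes were 0.33 (SE 0.03, edgeR adjusted p 1.2e-08) and -0.09 (SE 0.03, adjusted p 0.013). The fucosyltransferase gene Fut1 fell by 1.48 (SE 0.14, edgeR adjusted p 1.5e-08) and 0.52 (SE 0.12, adjusted p 9.6e-04). Fut2, which fucosylates secreted mucins, rose by 0.54 (SE 0.12, edgeR adjusted p 4.1e-04) and 1.09 (SE 0.12, adjusted p 6.4e-08). Among 6 glycolipid core genes, 5 were higher and 1 lower without Hdac1 (median 0.34), and 3 were higher and 2 lower without Hdac2 (median 0.02), beside the same 64.6% and 62.3% of all genes. Of these 6, B4galt5, B4galt6, B3galt4, B4galnt1 and Gal3st1 also belong to the acceptor or capping lists, so the count is not a separate result. Gal3st1, the sulfatide sulfotransferase, rose by 0.34 and 0.55, and B3galt4, a ganglioside galactosyltransferase, by 0.36 and 0.41.

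**Figure D5:**
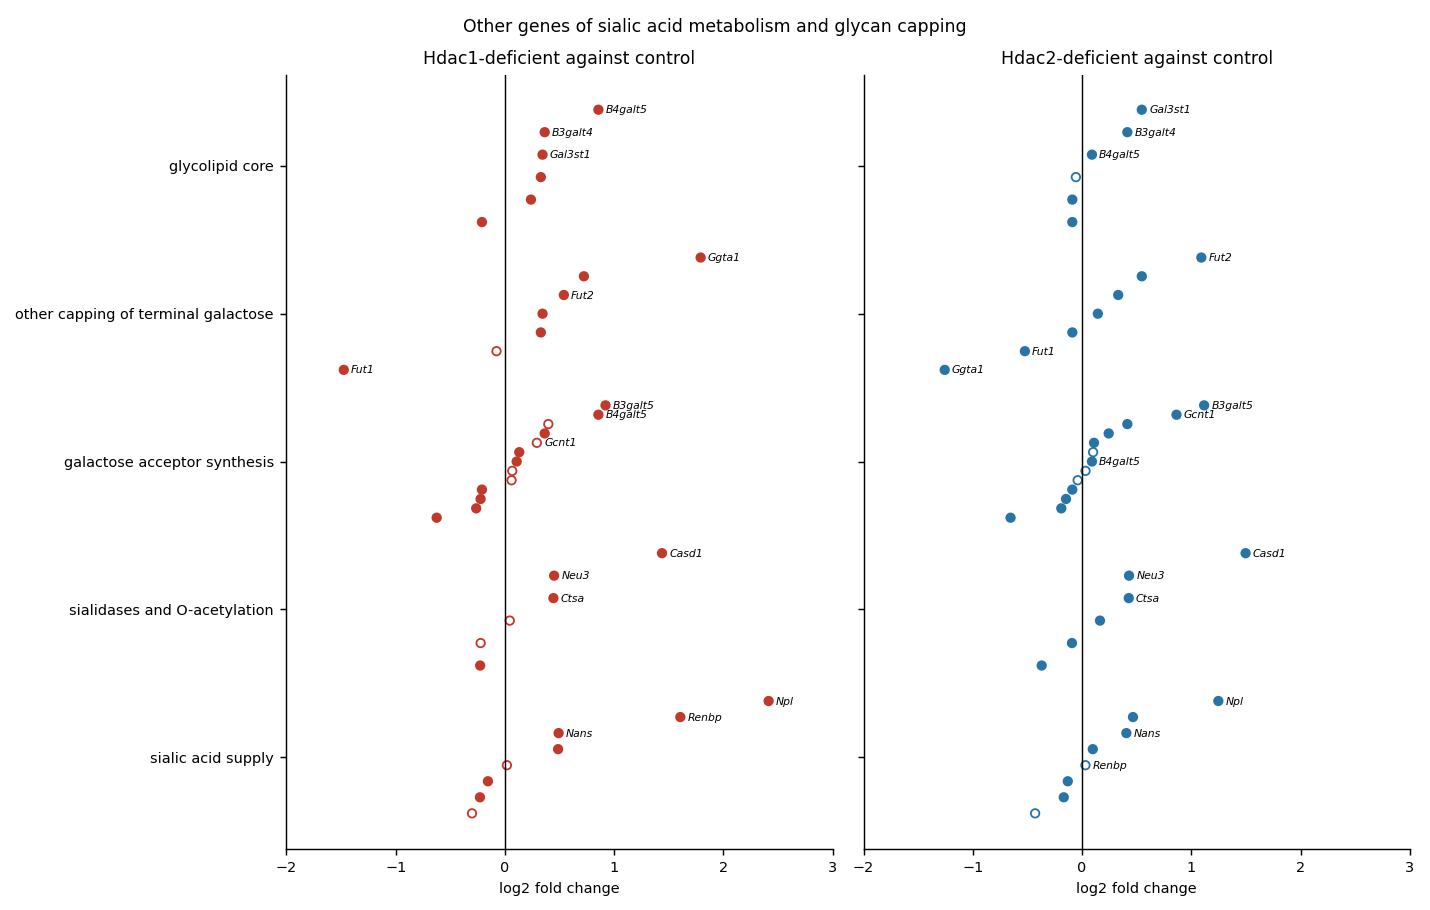
Log2 fold change of each tested gene in the 5 lists around sialic acid, for each mutant against the same controls, with filled points for an adjusted p of at most 0.05 and open points above it. Npl reaches 2.41 without Hdac1 and 1.25 without Hdac2, and Ggta1 lies at 1.79 in one panel and -1.26 in the other.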

How the data were processed

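RNA-Seq libraries of 4 control, 4 Hdac1-deficient and 4 Hdac2-deficient enteroid cultures were taken as labelled. The authors aligned reads to GRCm38 with STAR (2.4.0f1 in the submitters' processing notes) and deposited whole-number counts of reads per gene, not normalised, in 1 table per mutant with the same control libraries. The lowest sum of counts over the 8 libraries of a table is 10. The counting program is not given in the sources used here. The deposited tables also hold normalised values and the authors' own comparisons (log fold changes, average log CPM, and p-values from DESeq and edgeR), which were not used.

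Counts were fitted with edgeR 4.0.16 (R 4.3.3): filterByExpr, TMM, robust quasi-likelihood F test, each mutant with its controls, and all 12 libraries for the direct contrast. P-values were adjusted by Benjamini-Hochberg over all tested genes, with 0.05 as the threshold. Standard errors are those of the log2 fold change. On simulated data, 93, 96 and 92 of 100 genes changed 2-fold were recovered in the Hdac1, Hdac2 and direct comparisons, among 14246, 14007 and 14510 genes. Of 100 genes changed 1.5-fold, 86, 85 and 79 were recovered. The simulation gave all genes 1 common spread and changed only 200, so it does not cover noisier genes or widespread change. Genes and exon lengths came from GENCODE M21 (18817 of 18929 IDs matched). The library totals set the precision; a floor of 3 reads covers counting error only.

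The members and the lists were chosen with earlier results of these data known. Named were every member, up to 3 genes of each list with the largest absolute change among those called without overlap with controls, the 5 genes most like St3gal4 and 3 most like St6gal1 with a mean of at least 5 CPM, the 3 nearest tested genes on each side of St3gal4, and Hdac1 and Hdac2. B4galnt1, B4galt6, Neu1, Gne, Slc35a1 and Slc17a5 were named after their values were seen. Alternatives were DESeq2 1.42.0, other size factors, other filters, a replicate block, 1 joint fit, the mutants alone, and leaving out each library.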

Additional observations from a re-analysis of the deposited data

Results flagged for a closer look

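Among the 30 sets of 4 libraries (10 genes in 3 groups), 5 held a library whose gap to the nearest other exceeded Dixon's critical share of the range. Chance flags about 1 set in 20. In controls, replicate 1 was low for St3gal4 (7.07 CPM, the others 8.24 to 8.46) and high for St3gal2 (0.235 CPM, the others 0.126 to 0.141, from 3 to 7 reads in all 4). Control replicate 2 was low for St6galnac2 (37.1 CPM, the others 42.2 to 43.2), and control replicate 3 was low for St3gal6 (109.7 CPM, the others 115 to 116). Hdac2-deficient replicate 1 was low for St3gal6 (80.3 CPM, the others 82.4 to 82.7).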

How the results depend on the processing

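The alternatives were DESeq2, RLE factors, library size alone, no filter, a mean of at least 10 counts and a replicate block. Further ones were 1 fit of all 12 libraries, the mutants alone and no division by length. With these, 87 of 87 answers, among them the counts of changed members, stayed on the same side. All 147 single-gene values did so too. Without division by length, St3gal6 still led in controls and Hdac2-deficient enteroids, and St3gal4 in Hdac1-deficient enteroids. The order below them changed in places. By CPM, St3gal1 stood above St3gal4 in controls and above St3gal3 in Hdac1-deficient enteroids, pairs whose libraries overlapped in RPKM. St3gal4 ranged from 5.24 to 5.25 without Hdac1 and from -0.64 to -0.60 without Hdac2. When each library was left out in turn, 107 of 112 answers and all 196 single-gene values kept direction and call, and the remaining 5 were counts past 2-fold. That count ranged from 1 to 2 in the Hdac1, the Hdac2 and the direct comparison (2, 2 and 1 with all libraries). St3gal4 then ranged from 5.19 to 5.28, -0.73 to -0.47 and 5.71 to 5.97. With library size alone, the genes called over the whole table split into 3984 higher and 4839 lower without Hdac2 (4402 and 4327 with TMM), and 3825 and 2926 between the mutants (3229 and 3436 with TMM). Counts of 11 or 12 reads for St6gal1 in controls, and fewer than 13 for St3gal2 and St3gal5, limit what can be seen.

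Replicate numbers are shared between groups, but no source says that they pair cultures. Deviations of same-numbered libraries from their group means had correlations of -0.045 to 0.091, and not every library correlated best with its own number. With a replicate block, members higher and lower remained 3 and 2 without Hdac1, 2 and 4 without Hdac2, and 3 and 1 directly, and St3gal4 gave 5.24, -0.60 and 5.85. Over all genes, the block gave 4540 higher and 4383 lower without Hdac1, beside 4656 and 4540 without it.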
